A study of Homo sapiens with 2 samples.

Results

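Subtelomeres are the stretches of a chromosome next to its telomeres. Here they were taken as the outermost 1 Mb of each chromosome end, and the HNRNPK ChIP-seq peaks in them were compared between ends. A peak was a member when its midpoint lay less than 1 Mb from either end of chromosomes 1 to 22 on GRCh38. Chromosome 19 was left out, and so were the starts of chromosomes 13, 14, 15, 21 and 22. This left 37 ends of 21 chromosomes, 16 of them on short arms (p) and 21 on long arms (q). They held 789 of the 22351 peaks of the list, or 3.53%.

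H1299 is a p53-null line of human non-small cell lung cancer, grown here untreated. In ChIP-seq, DNA bound by a protein is enriched with an antibody against it and sequenced (IP), beside sonicated DNA that saw no antibody (input). There was 1 IP library with an HNRNPK antibody and 1 input library, and peaks were called on the IP against the input. Without replicates no value carries a replicate error, and the 95% intervals given below cover counting error only.

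HNRNPK is a nuclear protein that binds RNA and DNA through KH domains and prefers runs of cytosine. The C-rich strand of the telomere repeat is among the sequences that such poly(C)-binding proteins can bind in the test tube. Subtelomeres carry blocks of sequence copied between many chromosome ends near the tip, with pseudogenes and olfactory receptor genes, and further in they pass into regions dense with ordinary genes.

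The sequences below are promoter windows at 4 of these ends that a peak overlapped, from 250 bases before to 50 bases after a transcription start site (TSS), as given by RefSeq on GRCh38 and written 5' to 3' along the strand of the gene. SPIRE2, an actin nucleation factor, at chr16:89828225-89828524 on the plus strand, is shown because its peak had the lowest FDR among the protein-coding genes of the set. EHMT1, a histone H3 lysine methyltransferase, at chr9:137618755-137619054 on the plus strand, stands for the chromatin genes described further on. The noncoding CEP72-DT, at chr5:612161-612460 on the minus strand, held 3 of the 4 motifs searched. The noncoding LOC105374338, at chr4:576918-577217 on the plus strand, held 7 matches of the C-rich motif. In SPIRE2 and EHMT1 the marked matches all lay outside the bases covered by the peak. In CEP72-DT 1 of 5 lay wholly within them, the CCTCGC that follows it lay partly within, and the others lay outside. In LOC105374338 all but 1 of 7 lay outside. Capitals mark the letters TTAGGG (the telomere repeat), GCGAGG and CCCTCCC on either strand.
SPIRE2: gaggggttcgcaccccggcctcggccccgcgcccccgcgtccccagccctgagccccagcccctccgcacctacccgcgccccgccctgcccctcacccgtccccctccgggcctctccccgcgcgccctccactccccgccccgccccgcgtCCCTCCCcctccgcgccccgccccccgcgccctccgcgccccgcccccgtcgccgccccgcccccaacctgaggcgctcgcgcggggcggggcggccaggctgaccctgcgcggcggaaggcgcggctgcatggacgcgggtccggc
EHMT1: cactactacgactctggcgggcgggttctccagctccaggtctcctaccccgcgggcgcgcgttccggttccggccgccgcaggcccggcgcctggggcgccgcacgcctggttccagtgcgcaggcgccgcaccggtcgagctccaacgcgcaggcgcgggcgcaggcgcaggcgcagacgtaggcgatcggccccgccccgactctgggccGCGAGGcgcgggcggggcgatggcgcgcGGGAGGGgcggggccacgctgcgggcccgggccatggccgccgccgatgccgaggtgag
CEP72-DT: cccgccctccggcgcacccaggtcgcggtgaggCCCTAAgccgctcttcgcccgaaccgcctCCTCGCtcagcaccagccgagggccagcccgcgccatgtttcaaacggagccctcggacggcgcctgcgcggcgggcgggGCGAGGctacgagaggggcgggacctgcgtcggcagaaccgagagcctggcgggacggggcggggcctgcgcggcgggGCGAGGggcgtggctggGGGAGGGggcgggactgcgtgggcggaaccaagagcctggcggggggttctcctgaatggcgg
LOC105374338: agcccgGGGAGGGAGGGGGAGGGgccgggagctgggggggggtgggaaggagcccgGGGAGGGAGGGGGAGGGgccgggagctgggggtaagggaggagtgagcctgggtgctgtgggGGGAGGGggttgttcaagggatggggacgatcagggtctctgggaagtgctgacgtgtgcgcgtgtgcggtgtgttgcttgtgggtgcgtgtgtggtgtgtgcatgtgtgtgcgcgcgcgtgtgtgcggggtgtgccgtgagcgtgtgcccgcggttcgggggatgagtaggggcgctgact

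Peaks were dense at the chromosome ends. There were 21.3 per Mb (exact Poisson interval, 19.9 to 22.9) over the 37 Mb of the ends and 6.80 per Mb (6.70 to 6.89) over the rest of the same 21 chromosomes. The ratio was 3.14 (exact conditional interval, 2.92 to 3.37), so the ends held 4.01% of the peaks on 1.31% of the length. Protein-coding genes were dense there too, at 15.7 against 6.11 per Mb, a ratio of 2.58 (2.37 to 2.80). Per protein-coding gene there were 1.36 peaks at the ends and 1.11 in the rest, a ratio of 1.22 (1.13 to 1.31). The part of gene density in the difference per Mb was not tested. Chromosome lengths here include bases that the assembly leaves unsequenced, which lie mostly outside the ends counted.

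The density did not peak in the outermost Mb. The next Mb, from 1 to 2 Mb from the end, held 23.5 peaks per Mb (21.9 to 25.1), and the ratio of the ends to it was 0.908 (0.824 to 1.00). Further in, the density fell, apart from a slight rise at 6 to 7 Mb, to 10.5 per Mb (9.44 to 11.6) at 9 to 10 Mb, still above the rest of the chromosomes as a whole. Over 2 to 10 Mb it was 12.9 per Mb, and the ratio of the ends to these bases was 1.65 (1.53 to 1.78). For protein-coding genes the ratio between the ends and 2 to 10 Mb was higher, 2.02 (1.84 to 2.21). From 2 to 3 Mb on, however, they fell less than peaks, from 9.16 to 7.05 per Mb at 9 to 10 Mb, while peaks fell from 18.2 to 10.5. Per protein-coding gene, the outermost Mb thus had fewer peaks (1.36) than the next (1.63) or than 2 to 10 Mb (1.66). Pooled over the ends, the high density thus extended over several Mb and was not limited to the outermost Mb.

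**Figure D1:**
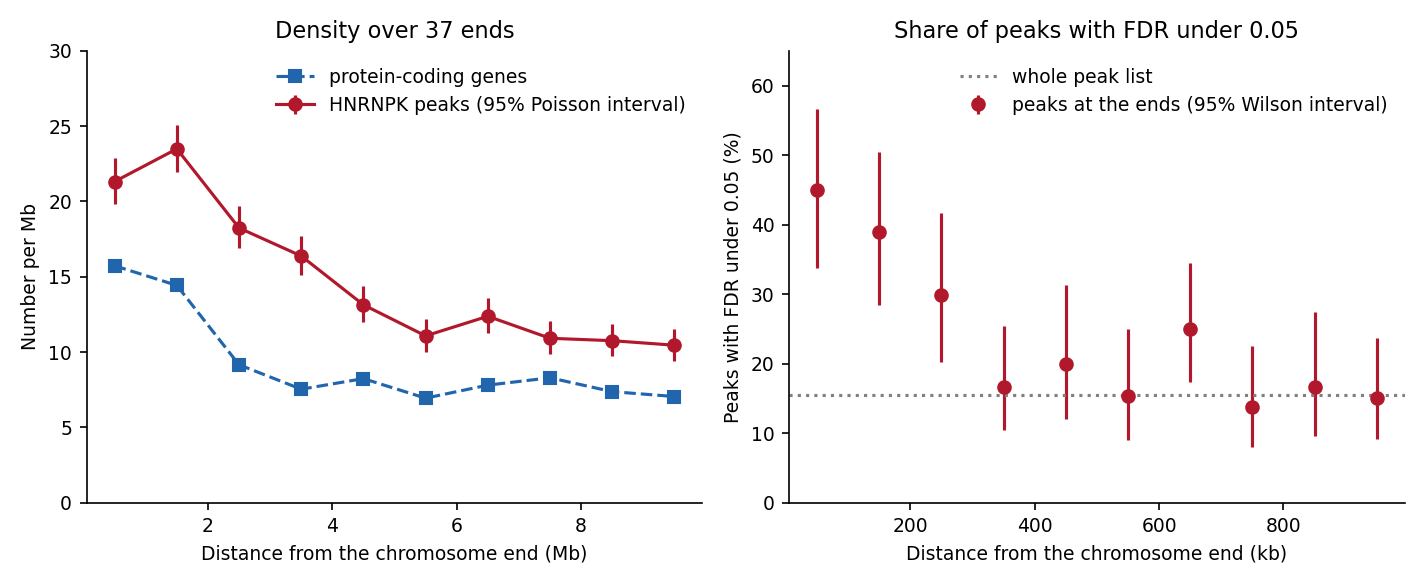
Left, HNRNPK peaks per Mb (circles, with 95% exact Poisson intervals) and protein-coding genes per Mb (squares) in steps of 1 Mb from the end, pooled over 37 ends. Right, the percentage of peaks with an FDR under 0.05 in steps of 100 kb (circles, with 95% Wilson intervals) beside that of the whole list (dotted line, 15.5%), which falls from 44.9% next to the end to 16.7% at 300 to 400 kb.

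End peaks were more often among the better supported peaks of the list. The FDR is the q-value that the peak caller gave each peak. It was under 0.05 for 181 of the 789 end peaks, or 22.9% (Wilson interval, 20.1% to 26.0%), against 15.5% of all peaks of the list and 14.4% (13.9% to 14.9%) in the rest of the same chromosomes. Fold enrichment, the IP coverage over the local background, was at least 5 for 53 end peaks, or 6.72% (5.17% to 8.68%), against 3.19% of all peaks. A typical end peak was no higher than elsewhere. The median pileup, which is the IP coverage of a peak in scaled fragments, was 7.79 at the ends, in the rest of the same chromosomes and in the whole list alike, or 8 fragments. The difference lay in the upper tail. A pileup of 20 or more was found for 28 end peaks (3.55%, 2.47% to 5.08%), against 1.29% of all peaks and 0.789% in the rest. Long peaks of 500 bp or more made up 9.89% of the end peaks, 6.16% of all peaks and 5.23% of the rest. The local background, recovered from pileup and fold enrichment, had a median of 1.40 (1.33 to 1.42) at the ends and 1.24 in the rest, but it was also 1.40 from 1 to 2 Mb and 1.35 from 2 to 3 Mb.

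The share of peaks with an FDR under 0.05 depended on the distance from the tip. It was 44.9% in the outermost 100 kb, 38.9% from 100 to 200 kb and 29.9% from 200 to 300 kb, and it lay between 13.8% and 25% in the 7 steps further in. Pooled, 59 of 141 peaks in the outermost 200 kb passed (41.8%, 34.0% to 50.1%), against 122 of the 648 peaks further in (18.8%, 16% to 22.02%). These 59 peaks lay at many ends. The short arm of chromosome 12 had the most, 9, and without that end the shares were 39.7% and 18.8%. Without the outermost 20 kb, described next, 41 of 115 peaks of the outermost 200 kb passed (35.7%, 27.5% to 44.7%). The local background was also higher close to the tip, with a median of 1.72 in the outermost 200 kb and 1.33 further in. The number of peaks showed no such fall, with 18.65 per Mb in the outermost 100 kb and between 17.57 and 25.95 per Mb in the steps further in. The outermost 100 kb had only 22 protein-coding genes for its 69 peaks, or 3.14 peaks per protein-coding gene.

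The outermost 20 kb held 26 peaks at 18 ends, 13 on short and 13 on long arms. An FDR under 0.05 was given to 18 of them, and their median pileup was 15.6 against 7.79 for all end peaks. Most of these peaks crowded at the very edge of the sequenced chromosome. Within 11 kb of the end, a bound chosen after the values were seen, there were 16 peaks at 15 of the 37 ends, and their outer borders lay 9896 to 10675 bp from the end of the coordinates. GRCh38 writes the outermost bases of most chromosomes as unsequenced, so these peaks sat at or near the start of the known sequence, where telomere repeats begin on many arms. Their pileups lay between 8.76 and 93.45 (median 30.2), and 13 of the 16 had an FDR under 0.05. Their local background lay between 1.046 and 23 (median 4.50), against 1.40 for all end peaks. Reads that match several copies of a sequence can raise the IP and the input together, and the part of such reads in these values was not tested.

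The tip peaks lay in no protein-coding gene, and for 12 of the 16 the nearest gene belonged to either of a pair of pseudogene families. The nearest gene was a DDX11L pseudogene, a partial copy of the helicase gene DDX11, for 4 of the 16 peaks. It was an RPL23A pseudogene, a copy of a ribosomal protein gene, for 8 peaks at 7 ends, among them 1q, 2q, 4q, 17q, 21q and 22q. For the other 4, on 3p, 7p, 13q and 18p, it was LINC01986, LOC102723872, LOC112268113 and LINC02564. On 1p the peak at chr1:10015-10444, next to DDX11L1, had a pileup of 93.45 and a fold enrichment of 4.50 over a background of 20. On 12p the peak at chr12:10015-10670, next to DDX11L8, had a lower pileup of 50.62 but a higher fold enrichment of 8.60, over a background of 5. On 1q the peak at chr1:248945496-248946404 was 909 bp long and reached a pileup of 59.38 and a fold enrichment of 8.63. The tip of 22q showed the opposite mix, a pileup of 77.88 with a fold enrichment of 3.29 over a background of 23. Weak tip peaks were also listed, such as those of 9p (pileup 12.66, FDR 0.351) and 7p (pileup 29.2, FDR 0.149). The other 22 ends had no peak within 11 kb of the end. The list holds only peaks that passed the peak caller, so a missing entry is no measure of the coverage there.

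**Figure D2:**
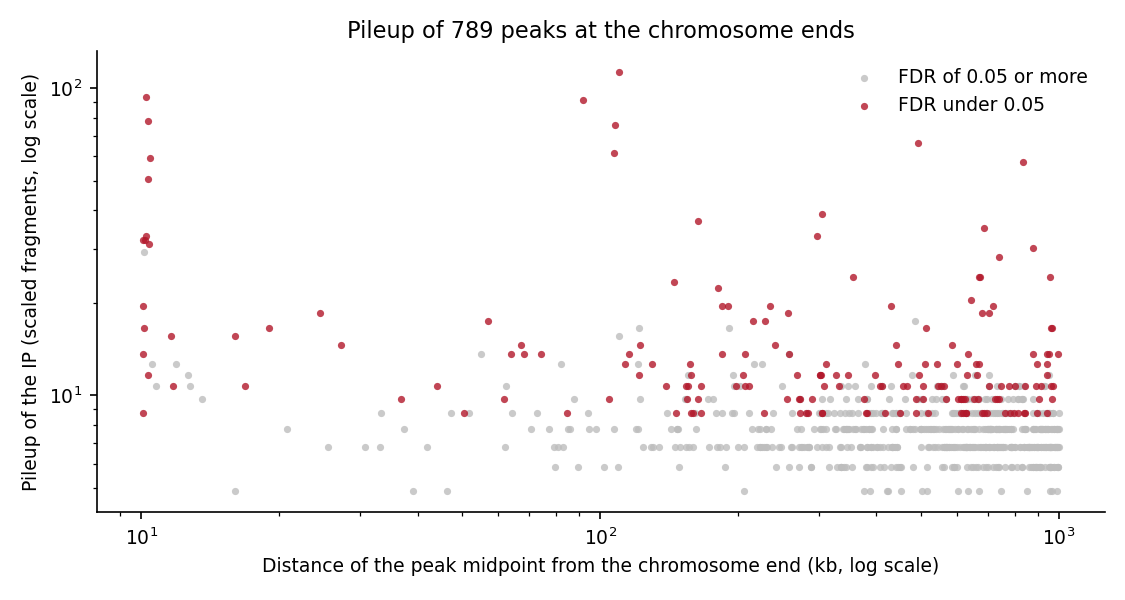
Pileup of each of the 789 end peaks (scaled fragments, log scale) against the distance of its midpoint from the chromosome end (kb, log scale), coloured by FDR. Peaks between 10 and 11 kb from the end reach pileups up to 93.45, while the median of all end peaks is 7.79.

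Away from the tips, the strongest peaks fell in or near genes of varied kinds. The 10 highest fold enrichments ran from 7.60 to 11.37. The highest was in FAM240C on 2q, a little-studied gene, at chr2:241896320-241896884, with a pileup of 33.1 and a local background of 2. BTNL9 on 5q, a butyrophilin-like membrane protein, held a peak with a pileup of 66.2 and a fold enrichment of 8.40. TCF25 on 16q, part of the machinery that clears stalled nascent proteins from ribosomes, and FOXK2 on 17q, a forkhead transcription factor, each had a peak of fold enrichment 8.45. The 3 others in genes or near them were SNTG2 on 2p, a syntrophin of the dystrophin complex (8.11), IQSEC3 on 12p, an exchange factor for ARF GTPases at inhibitory synapses (7.60), and the noncoding LOC105374308 on 3q (8.35). FLT4, the receptor for the lymphatic growth factors VEGF-C and VEGF-D, was the gene nearest to a peak of fold enrichment 7.80 that lay 8412 bp from it. The tips of 1q and 12p complete the 10.

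Ranked by pileup instead, 4 of the first 10 peaks were also in the first 10 by fold enrichment, namely those of BTNL9, LOC105374308 and the tips of 1q and 12p, and the tips of 1p and 22q were described above. The others had lower fold enrichments. ROCK1P1 on 18p, a partial pseudogene of the kinase gene ROCK1, had the highest pileup at any end, 112.92, with a fold enrichment of 3.08 over a background of 36. A neighbouring peak 1753 bp outside ROCK1P1 reached 61.33 over a background of 26. On 4q a peak 91.7 kb from the end, nearest to LOC107986338, had a pileup of 91.51 and a fold enrichment of 6.17. On 10q a peak near DUX4L20, a copy of the DUX4 gene of the D4Z4 repeat, had a pileup of 75.93 but a fold enrichment of only 2.08 over a background of 36. The ends of 4q and 10q both carry D4Z4 arrays, so near-identical sequence is found on both. A local background of 10 or more was given to 8 end peaks at 7 ends (1.01%), against 0.3601% of the peaks in the rest.

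The ends differed widely in the number of peaks. The count ran from 1 on 3p to 59 on 7p, with a median of 18. The 6 ends with the most peaks, 7p (59, 44.9 to 76.1), 20q (49), 16q (48), 17q (46), 5q (40) and 12p (37), held 279 of the 789 peaks, or 35.4%. The 6 with the fewest, 14q (7), 10p, 2p and 4q (6 each), 9p (4) and 3p (1, 0.0253 to 5.57), held 30, or 3.80%. The intervals of neighbours in this order overlap, while those of 7p and of any end with 31 or fewer peaks do not. Peaks with an FDR under 0.05 were found at 34 ends. The highest counts were at 7p and 1p with 15 each, then 12p and 17q with 13 each. The 3 ends without such a peak were 18q, 14q and 10p.

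**Figure D3:**
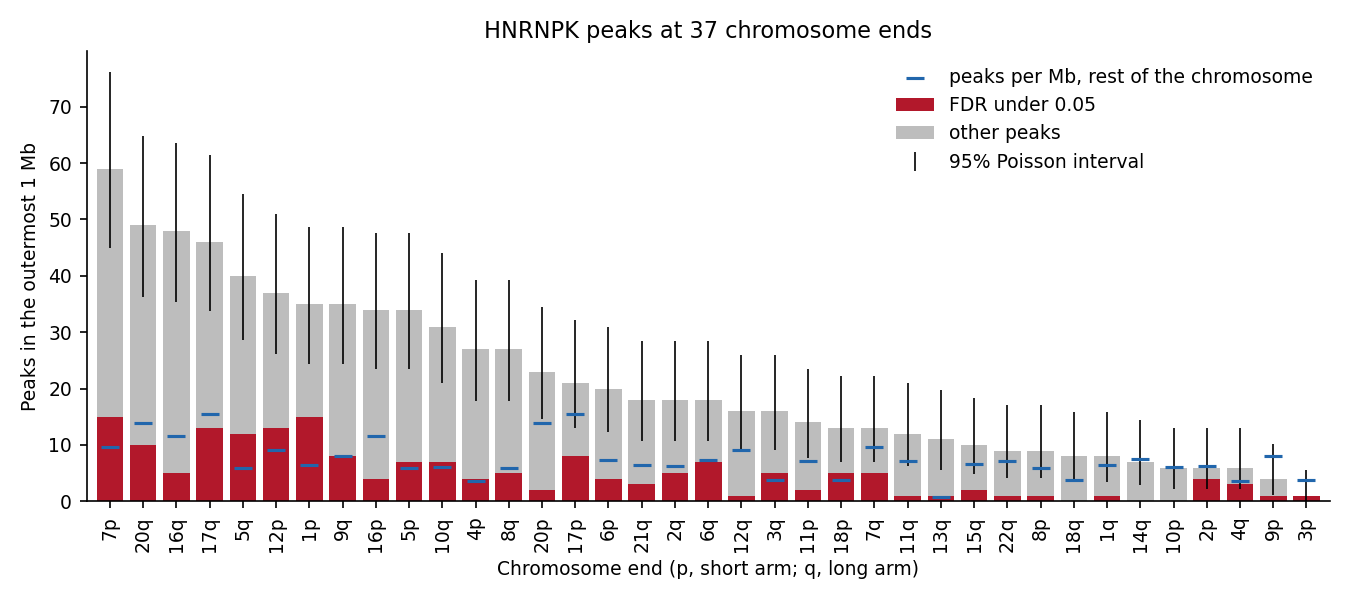
Number of peaks in the outermost 1 Mb of each of the 37 ends (bars from 0, with 95% exact Poisson intervals), split by FDR, and the peaks per Mb of the rest of the same chromosome (dashes). Counts run from 59 at 7p to 1 at 3p, and 32 of the bars stand above their dash.

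Against its own chromosome, 32 of the 37 ends had more peaks per Mb than the rest, and for 22 of them the interval of the ratio lay above 1. No end had an interval below 1, though 3p and 9p had ratios of 0.268 (0.00677 to 1.50) and 0.499 (0.136 to 1.28). The ratio was highest for 13q, where 11 peaks stood against 0.829 per Mb in the rest of the chromosome (13.3, 6.40 to 24.8). The rest of chromosome 13 includes its short arm, most of which the assembly leaves unsequenced. Chromosomes 14, 15, 21 and 22, whose starts were left out too, had 6.41 to 7.46 per Mb in the rest. The part of the short arm in the ratio of 13q was not tested. High ratios were also found for 4p (7.32, 4.79 to 10.8), 5q (6.76, 4.80 to 9.27) and 7p (6.09, 4.61 to 7.90). Chromosome 17 was dense throughout, so the 21 peaks of 17p gave a ratio of only 1.36 (0.837 to 2.08) to its 15.5 per Mb.

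The number of peaks followed the number of genes only loosely. Across the 37 ends, Spearman's correlation of peaks with protein-coding genes was 0.477 and Pearson's 0.289, and with the peaks per Mb of the rest of the chromosome they were 0.436 and 0.514. With the median local background they were 0.328 and -0.0361. The highest of these medians, 5 on 3p and 2.315 on 9p, rest on only 1 and 4 peaks, while that of 7p was 1.724. The correlations describe 37 points that share the same pair of libraries, and paired ends share a chromosome. Several ends rich in genes had few peaks. The end of 22q had 37 protein-coding genes and 9 peaks, that of 11p 46 and 14, and that of 1q, where olfactory receptor genes lie, 32 and 8. The reverse held on 6p with 4 protein-coding genes and 20 peaks, and on 7p with 12 and 59.

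The arms of a chromosome often differed, with no common direction. Over the 16 chromosomes with both ends counted, long arms held 391 peaks and short arms 343, a ratio of 1.14 (0.984 to 1.32). Without 7p, the end with the most peaks, and with it chromosome 7, the ratio was 1.33 (1.14 to 1.56), and with ends of 2 Mb it was 1.27 (1.15 to 1.41). With ends of 0.5 Mb it was 1.02 (0.820 to 1.26), and for peaks with an FDR under 0.05 it was 1.02 (0.752 to 1.39), so the arms differed beyond counting error under some of these choices and not under others. The long arm had more peaks in 9 chromosomes and the short arm in 7. Taken by chromosome, the interval of the ratio lay above 1 in 7 and below 1 in 4, namely chromosomes 1, 4, 7 and 12. On chromosome 7 the short arm had 59 peaks and the long arm 13, while on chromosome 9 the short arm had 4 and the long arm 35. On chromosome 5 both ends were dense, with 34 and 40. Protein-coding genes were also slightly more numerous on the long arms, 265 against 240 (ratio 1.10, 0.924 to 1.32).

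**Figure D4:**
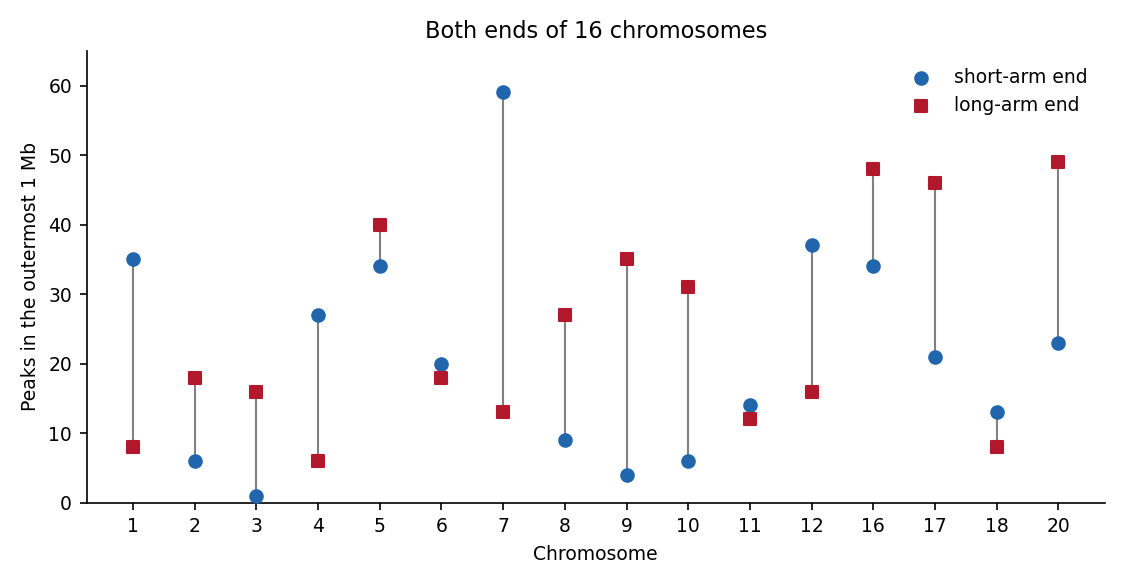
Number of peaks in the outermost 1 Mb of the short arm (circles) and the long arm (squares) of the 16 chromosomes with both ends counted, joined by a line. The gap is widest on chromosome 7 (59 and 13) and changes direction from chromosome to chromosome.

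Median pileups hardly set the ends apart. They ranged from 6.33 to 9.73 among the 27 ends with 10 or more peaks, and the single highest peak of an end ranged from 7.79 on 10p to 112.92 on 18p. With more peaks per Mb, the gaps between neighbours at the ends were necessarily shorter, with a median of 18.2 kb against 43.0 kb in the rest. At most 1000 bp were 43 of the 752 gaps (5.72%), against 3.78%. At the border of 1 Mb, the nearest members inside had pileups of 7.79, 8.76 and 6.81 at 998.3, 999.4 and 999.8 kb from the end, and the nearest peaks outside 6.81, 5.84 and 5.84 at 1000.4, 1000.9 and 1001.9 kb.

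Most end peaks lay in genes. The midpoint was in a gene or within 1000 bp of one for 603 of the 789, or 76.4% (73.3% to 79.3%), against 66.7% (66.0% to 67.3%) in the rest of the same chromosomes. For protein-coding genes alone the shares were 59.7% (56.2% to 63.1%) and 52.0%. End peaks in a protein-coding gene span had an FDR under 0.05 less often (17.4% of 443) than those in another gene (29.7% of 111) or between genes (30.2% of 235). Distances to the nearest TSS, which could be taken for 753 end peaks, had a median of 14195 bp, against 23463 bp in the rest. A TSS lay within 5000 bp of 23.9% of these peaks (21% to 27.1%), against 17.1% in the rest, and within 1000 bp of 7.04% (5.42% to 9.09%), against 5.62% (5.29% to 5.96%). Within 5000 bp the intervals thus did not overlap, while within 1000 bp they did. Protein-coding genes were also denser at the ends, at 15.7 against 6.11 per Mb in the rest. The part of gene density in the distances and in the shares in or near genes was not tested.

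Of the 582 protein-coding genes at the ends, 232 had a peak in their span or the 1000 bp around it, or 39.9% (36.0% to 43.9%), against 33.3% of the protein-coding genes of chromosomes 1 to 22 and 32.0% (31.3% to 32.7%) in the rest of the same chromosomes. Protein-coding genes at the ends were shorter, with a median of 14.6 kb against 27.0 kb in the rest. The part of gene length in these shares was not tested. A single peak was found in 132 of the 232 genes, and 23 had 5 or more. Long genes led the count. CACNA1B on 9q, the pore subunit of the N-type calcium channel, had 15 peaks over 246.8 kb, with pileups from 4.87 to 9.73. PRKAR1B on 7p, a regulatory subunit of protein kinase A, had 11 over 179.7 kb. TBCD on 17q, a tubulin folding cofactor, also had 11, over 193.8 kb. None of these 37 peaks passed a pileup of 12.66, and 5 had an FDR under 0.05.

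Per length, with the 1000 bp on either side included, the order changed among the 12 genes with 6 or more peaks. Some genes with fewer peaks came higher, such as PLEKHN1 on 1p with 4 peaks or 3.51 per 10 kb. ADAP1 on 7p, which binds inositol phosphates and acts on ARF6, had 9 peaks or 1.51 per 10 kb, and PDE6B on 4p, the rod photoreceptor phosphodiesterase, had 7 or 1.48 per 10 kb. CACNA1B came to 0.603 per 10 kb, and AHRR, though shorter, to 0.506. The next genes by number of peaks were B4GALNT3 (8), a glycosyltransferase, IQSEC3 (7) and NINJ2 (6), an adhesion protein, all on 12p, with FAM20C (6), the secretory pathway kinase, on 7p and AHRR (6), the repressor of the aryl hydrocarbon receptor, on 5p. ANKRD11 on 16q and the cilia gene CFAP46 on 10q also had 6, so that 12 genes had 6 or more. The median pileup in FAM20C was 12.2, and 3 of its 6 peaks had an FDR under 0.05, as did 3 of the 9 in ADAP1. None of the 6 in AHRR did.

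The leading genes of the densest ends came from different pathways. On 7p, PRKAR1B, ADAP1 and FAM20C were followed by SUN1 (3 peaks), which links the nuclear lamina to the cytoskeleton, and LOC105375116 (2). On 20q they were ZBTB46 (5), a transcription factor of dendritic cells, UCKL1 (4), a uridine kinase, the splicing factor PRPF6 (4), the translation factor EEF1A2 (3), whose highest pileup was 24.34 and highest fold enrichment 4.22, and the transcription factor GMEB2 (2). On 16q they were ANKRD11 (6, of which 1 lay beyond 1 Mb), a chromatin regulator, TCF25 (5), DRC4 (5), a dynein regulator of cilia, LOC128462377 (4, of which 1 lay beyond 1 Mb) and CPNE7 (4), a calcium-dependent phospholipid-binding protein. At the ends with few peaks this varied. No protein-coding gene with its midpoint in the outermost Mb had a peak on 3p, 9p, 4q, 2p or 8p (SNTG2, which holds a peak of 2p, has its midpoint further in), while on 10p, with as many peaks as 4q and 2p, 3 of 6 did. The protein-coding genes without a peak included FRG1, FRG2 and DUX4 on 4q, WASHC1, LOC124902106, FOXD4, ZNG1A and the 254 kb long DOCK8 on 9p, and CHL1 on 3p, a neural adhesion molecule of 212.7 kb and the only protein-coding gene of that end.

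Gene families that have spread over chromosome ends have mostly members that code for no protein. Over all annotated genes at the ends the share with a peak was 25.8% (397 of 1538, 23.7% to 28.1%), and over those that are not protein-coding it was 17.3% (165 of 956, 15% to 19.8%). Of 81 annotated members of repeated subtelomeric families (WASH, DDX11L, FAM138, OR4F, FAM41, TUBB8, DUX4, FRG1, FRG2, CICP and MIR1302), 15 had one, or 18.5% (11.6% to 28.3%), and of the 14 protein-coding ones only TUBB8B on 18p did (7.14%, 1.27% to 31.5%). Of these 15, some of which share a peak, 10 had a peak with an FDR under 0.05, against 56 of all 165 genes at the ends that are not protein-coding and had a peak (33.9%, 27.15% to 41.5%) and 116 of all 397 annotated genes that had one (29.2%). Most of the 15 lie in the outermost 200 kb, where 41.8% of all end peaks had such an FDR. The part of this distance in the contrast was not tested. On 1p, WASH9P, a pseudogene of the WASH complex gene, held 5 peaks with pileups from 11.7 to 19.5, and the lncRNA FAM41C held a peak of fold enrichment 7.06. On 12p, WASH8P held 3 peaks, each with an FDR under 0.05. The remaining members with a peak were DDX11L1, WASH7P, MIR1302-2HG, DDX11L17 and CICP7 on 1p, FRG1-DT and DUX4L8 on 4q, DDX11L5 on 9p, FAM138D on 12p, WASH4P on 16p and CICP4 on 20q. Neighbouring members can share a peak, as WASH9P does with DDX11L17 and WASH7P with DDX11L1, and the 15 members had 22 distinct peaks. The copies also resemble each other, so a peak in a copy may hold reads of another.

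Other clustered families were looked at in the same way. The olfactory receptors include the OR4F members already counted above, none of which had a peak. Of 61 olfactory receptor genes and pseudogenes, 6 had a peak (9.84%, 4.59% to 19.8%), namely OR2L13, OR2L3 and OR2G6 on 1q, OR2V1 and OR2V2 on 5q and OR7M1P on 10q, and none of these peaks had an FDR under 0.05. OR2L13 and OR2L3 overlap and share their peak. Of the 37 protein-coding receptors 5 had a peak (13.5%, 5.91% to 28.0%). Immunoglobulin heavy chain entries on 14q had a peak in 5 of 119 (4.202%, 1.81% to 9.46%). They were the entry for the whole locus, IGH, 28 of whose 35 peaks lay beyond 1 Mb, and the segments IGHVIII-38-1, IGHV1-45, IGHV3-57 and IGHVII-62-1. None of the 6 beta-defensin genes of 20p, which encode antimicrobial peptides (DEFB125 and DEFB126 among them), had a peak, which for so few genes allows a share of up to 39.0% by the Wilson interval and up to 50% by the limit of 3 counts. Of the alpha-globin cluster on 16p, the embryonic gene HBZ had a peak, and HBM, HBA2, HBA1 and HBQ1 had none. Of 33 entries with the symbol of a zinc finger gene, some of them noncoding, 6 had a peak (18.2%, 8.61% to 34.4%), namely ZNF672, ZNF692, ZNF595, ZNF250, ZNF252P and ZNF511-PRAP1, but the peak of ZNF672 is that of ZNF692, and that of the readthrough ZNF511-PRAP1 lies in PRAP1 and not in ZNF511. Except for the zinc finger genes, with a median of 25.5 kb, members of these families are short. The part of gene length in these shares was not tested.

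A few lists of protein-coding genes were picked by hand for roles in replication, repair and the cell cycle, in signalling, and in chromatin and transcription. They are incomplete, leaving out the repair gene RAD52 and the transcription factor ZBTB46, for example, and a share stands for the listed genes alone. Of 15 listed genes of replication, repair and the cell cycle, some of them with other roles, 7 had a peak (46.7%, 24.8% to 69.9%). They were RTEL1 on 20q, the helicase that unwinds telomere loops, with 2, FANCA on 16q, of the Fanconi anaemia complex, with 4, and 5 others. RECQL4 on 8q and the replicative polymerase POLE on 12q had 1 each, both with an FDR under 0.05. TRIP13 and the condensin subunit NCAPG2 had 2 each, of which 1 in NCAPG2 had an FDR under 0.05. The centrosome protein PCNT had 1. The thymidylate synthase gene TYMS and SPG7, which encodes a mitochondrial protease, were among those without. Of 19 listed signalling genes, 10 had a peak (52.6%, 31.7% to 72.7%). Beside PRKAR1B and AHRR these were NXN (4), RASA3 (3), GAK (2), the nociceptin receptor gene OPRL1 (2, the higher with a pileup of 24.34, with fold enrichments of 3.62 and 3.70), PDGFA, VIPR2, GAS6 and AXIN1 (1 each), while HRAS and YES1 had none.

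Of 19 genes listed for chromatin and transcription, 7 had a peak (36.8%, 19.1% to 59.0%). EHMT1 on 9q had 3 with fold enrichments up to 4.87, 2 of them with an FDR under 0.05 and the highest with a pileup of 24.34, and FOXK2 and TCF25 had 4 and 5. TCF25 was listed as a transcription factor, as its symbol has it, though its role at ribosomes was named above. HDAC10 on 22q had 2, and the Polycomb gene PCGF3, the bromodomain gene BRD9 and the histone demethylase gene KDM5A had 1 each. TBP, the TATA-binding protein gene, and HSF1 had none. Among 19 solute carrier entries, 8 had a peak (42.1%, 23.1% to 63.7%), led by SLC6A12, a betaine and GABA transporter gene on 12p, with 5, and followed by SLC6A13 and SLC9A3 (2 each), SLC6A12-AS1, SLC9A3-AS1, SLC9D1, SLC66A2 and SLC2A4RG (1 each). These entries were taken by the start of their symbol, and SLC2A4RG is a transcription factor gene. The peaks of SLC6A12-AS1 and SLC9A3-AS1 are also among those of SLC6A12 and SLC9A3, so the 8 entries had 12 distinct peaks. Of 10 tubulin-related entries, TUBB3, TUBGCP2, the pseudogene TUBBP5 and TUBB8B (also counted above) had a peak. In the smallest lists there was a peak in 1 of 5 interferon-induced transmembrane entries (IFITM2), in 2 of 4 entries whose symbol starts with COL (COL6A1, with 2, and the collectin COLEC12, with 4) and in 1 of 4 ribosomal protein genes (RPL8). The intervals of these lists are wide. The repeated families and the olfactory receptors share the OR4F genes. Over protein-coding members, the intervals of these lists and of the zinc finger genes lay below the 39.9% of all protein-coding genes at the ends. For the beta-defensins the Wilson interval ended just below it and the limit of 3 counts above it, and the intervals of the other lists with protein-coding members include it. Over all annotated members, the repeated families include 25.8%, while the olfactory and immunoglobulin lists lay below it.

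**Figure D5:**
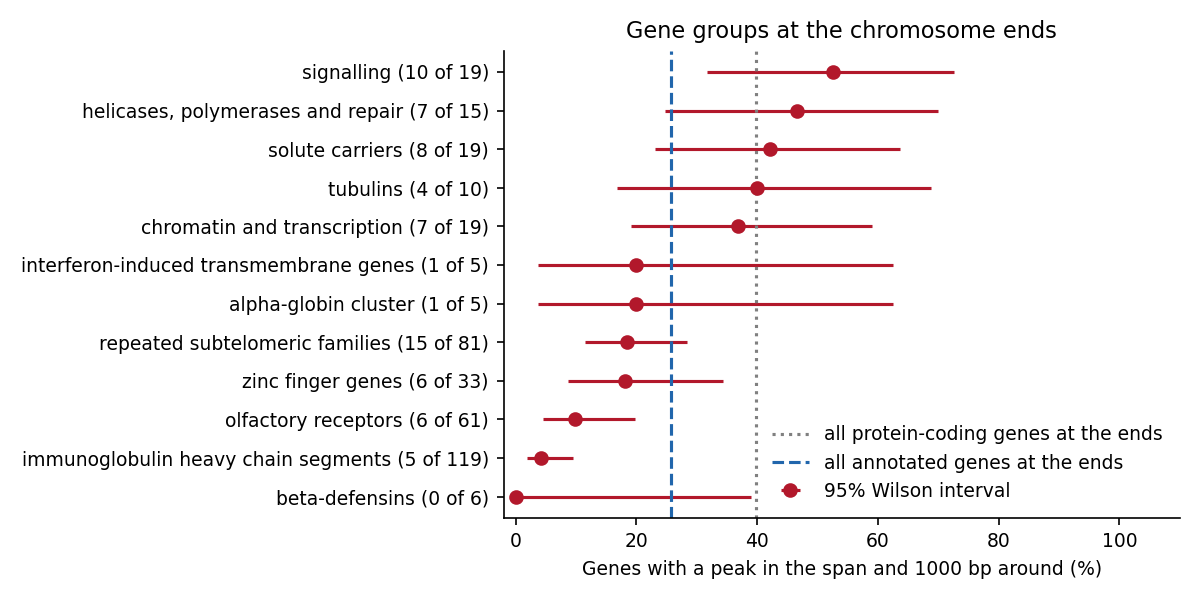
Percentage of the annotated genes of each list at the 37 ends with a peak in the gene or the 1000 bp around it (points, with 95% Wilson intervals), for lists with 5 or more genes. The dotted line is the share of all protein-coding genes at the ends, 39.9%, and the dashed line that of all annotated genes there, 25.8%, which the interval of the repeated families includes.

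Few peaks reached a promoter window. Of 939 windows at the ends, 22 were overlapped by a peak, or 2.34% (1.55% to 3.52%), against 1.72% of all windows of chromosomes 1 to 22. No window of chromosome 8 was available, so the shares of windows here leave it out. Some windows overlap each other, and the 22 were reached by 19 peaks, of which 4 had an FDR under 0.05. The peak at SPIRE2 covered 118 bases of the window shown above, with a pileup of 12.66, a fold enrichment of 4.93 and an FDR of 0.00171. That at EHMT1 covered 38 bases (pileup 8.76, FDR 0.180), and the same peak covered the whole window of the opposite ARRDC1-AS1. At CEP72-DT the peak covered 66 bases (pileup 8.76, FDR 0.0409), and at LOC105374338 it covered 227 (pileup 6.81, FDR 0.331). The 22 windows were rich in G and C, with a median of 65%, as were all windows at the ends (66.3%), against 58.7% in all windows.

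The C-rich motif CCCTCCC, searched on both strands as were all motifs, was in 8 of the 22 windows, or 36.4% (19.7% to 57.1%). It was in 26.4% of all windows, in 29.8% of those at the ends and in 43.0% of the 581 windows with a peak anywhere on these chromosomes. GCGAGG was in 5 of the 22 (22.7%), against 22.1% of all windows, 29.8% of those at the ends and 26.0% of those with a peak anywhere. TTAGGG was in 3 (13.6%), those of MRPL28, CEP72-DT and LARP4B-DT, against 9.11%, 7.03% and 8.78%. CTAATG was in none, against 6.51%, 3.73% and 4.82%. Of the 8 windows with CCCTCCC, 3 had a match within the bases that the peak covered. With 22 windows these shares are loosely measured. A match is a run of letters and not a measured binding site.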

How the data were processed

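Untreated H1299 cells gave 1 HNRNPK IP and 1 input library. The submitters' processing notes name Trimmomatic 0.36, STAR 2.5.3a, MACS2, bedtools, HOMER and GRCh38. The authors deposited 1 peak list of the IP against the input. It was taken as that of this IP, although the peaks are named after a line spelled A1299. Per the deposited file, fold enrichment is a ratio to the local background. The FDR (q-value) was deposited on a linear scale, and the p-value column was not used here. Pileup is the authors' deposited coverage signal, and its values were, to within 0.006, whole multiples of 0.9735, read as 1 fragment. The total reads per library were not analysed here.

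Local background was (pileup + 1) / fold enrichment, less 1. GRCh38 chromosome lengths were entered by hand, and no peak, gene or promoter passed them. Of 59792 RefSeq gene rows, 58999 were used, because the others had no coordinates or followed the numbering of contigs. Genes were placed by their midpoint. The promoter table had no entries for chromosome 8, so TSS distances, promoter shares and motifs leave it out. No genome sequence was used, so motifs were searched in promoter windows alone.

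Intervals were Wilson for shares, exact Poisson for counts, exact conditional for ratios and from order statistics for medians. No significance test was run. The genes named were those of the 10 end peaks with the highest fold enrichment and the 10 with the highest pileup, the 10 protein-coding genes with the most peaks (ties by position), up to 5 protein-coding genes of the 3 ends with the most and the 3 with the fewest peaks, and list members with a peak or, in lists without one, some others. Other list members without a peak, other examples, and genes nearest to tip peaks, were named once their values were known. The members and lists were chosen with earlier results of these data known. Alternatives were other windows, stricter thresholds, merged peaks, the outermost 20 kb or the densest end left out, other comparators and other gene rules. The placement was tested on simulated data. Python 3.11.15, numpy 2.4.6, scipy 1.17.1, pandas 2.3.3 and matplotlib 3.10.9 were used.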

Additional observations from a re-analysis of the deposited data

How the results depend on the processing

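Of 57 values under alternatives, 33 stayed inside the 95% interval of the main value, 23 moved outside it and 1 changed direction. With the bases from 1 to 2 Mb as comparator, the ratio of peaks per Mb fell from 3.14 to 0.908, and with those from 2 to 10 Mb it was 1.65. Both comparators are denser than the chromosomes as a whole.

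Stricter thresholds keep fewer peaks, which by construction lowers counts and raises pileups. With an FDR under 0.05, there were 4.89 peaks per Mb, 5.01 times the rest. Their median pileup was 11.7, their median local background 1.63, the share in or near a gene 68.5% and the share of protein-coding genes with a peak 10.3%. With a fold enrichment of at least 5 these values were 1.43 per Mb, 6.73 times the rest, 13.6, 1.51, 64.2% and 2.75%, and the ratio of long to short arms was 1.55 (0.856 to 2.87).

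With windows of 0.5 Mb, the ratio to the rest was 2.89, the share with an FDR under 0.05 29.3%, the median pileup 8.76 (1 fragment higher) and the median background 1.42. With 2 Mb, the ratio was 3.41 and the share 19.96%. The cause was not tested. Counting protein-coding genes only gave 59.7% of peaks in or near a gene, and gene spans alone 70.2%. Leaving out the densest end moved the ratio of long to short arms from 1.14 to 1.33, which leaves out chromosome 7. Merging peaks, leaving out the outermost 20 kb and placing genes by the peak midpoint moved no value outside its interval.

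Most peaks hold few fragments (a median of 8), and 1 library of each kind gives no replicate error. Coverage by position was not used here, so places without a listed peak have no value.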

Other observations

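The gene table numbers genes of unplaced and alternate contigs by chromosome with low coordinates. Of 789 such rows, 277 would have been placed at a short-arm end, 52 of them protein-coding, and none at a long-arm end. With these rows kept, an alternative chosen after the data were seen, 79.2% of end peaks were in or near a gene instead of 76.4%, and 39.0% of protein-coding genes at the ends had a peak instead of 39.9%. The number of rows equals the number of end peaks by coincidence.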
